A study of Mus musculus with 16 samples.

Results

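LECs of the lymph nodes (LNs) that drain an injected footpad were compared between mice without Clever-1 and wild type mice, 1 day after the injection. The comparison rests on 8 of the 16 RNA-seq libraries of the study, chosen by their labels: the 4 KO inflamed libraries against the 4 WT inflamed libraries. KO inflamed LECs came from Stab1-/- mice given ovalbumin (OVA) in Freund's adjuvant 1 day before collection, and WT inflamed LECs from wild type mice given the same. KO and WT mice that were not injected, with 4 libraries each, are called steady state and serve here as a second set of samples for the same genotype difference. Stab1 encodes Clever-1, and the knockout affects the whole animal, so macrophages lack it as well as LECs. The mice were young adults of both sexes, each library holds the cells of a pair of mice, and the LECs were sorted from popliteal and brachial LNs for CD31 and podoplanin and against CD45. The labels give the strain as C57BL/6, while the methods describe both lines as mixed between C57BL/6N and a further inbred strain, so the Stab1 deletion cannot be told apart from other DNA that differs between the KO and WT mice. The labels and the methods also differ on whether the adjuvant was complete or incomplete.

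LECs line the sinuses through which lymph, antigen and migrating dendritic cells pass into the LN. In this tissue they also present antigen, archive it and restrain T cells. Clever-1, also called stabilin-1, is a receptor that takes up modified lipoproteins and other cargo for degradation and that binds leukocytes on lymphatic and sinusoidal endothelium. After an injected antigen, LN LECs meet interferons and other cytokines, and the genes that interferons induce are a usual readout of that exposure.

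Levels are given as TPM, a transcript's share of a library scaled by its length and to a fixed sum. They keep no sequencing depth, so the precision of each value rests on the spread of the libraries. WT inflamed replicate 2 stood apart from the other inflamed libraries. Its log2(TPM + 1) values correlated at 0.905 to 0.916 with those of the other 7, which correlated at 0.974 to 0.989 among themselves. It held 10903 genes at 1 TPM or more, against 11954 to 12133 in the other 7. Relative to the other WT inflamed libraries its values were higher by a median of 0.16 log2 units for genes with transcripts under 1000 bases and lower for longer ones, with a median of -1.65 for those over 4000 bases. With this library the median log2 fold change of all genes was 0.20 and 73.9% of genes lay above 0, and without it the median was 0.02 and 54.7% lay above 0. The counts and most results are therefore given with all 8 libraries and without WT inflamed replicate 2, while some genes and lists are given for only 1 of these sets.

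The sorted cells carried the markers of LECs in both genotypes. Lyve1, the hyaluronan receptor of lymphatic endothelium, held 3625, 3392, 4352 and 4651 TPM in KO inflamed libraries, against 3115, 1466, 3618 and 3711 TPM in WT inflamed libraries. Prox1, the transcription factor that specifies the lymphatic fate, held 104, 104, 82.5 and 102 TPM in KO inflamed libraries, against 95.3, 16.8, 90.7 and 82.2 TPM in WT inflamed libraries. For both genes the lowest value was that of WT inflamed replicate 2, and the other libraries of the groups overlapped. Across Pecam1, Pdpn, Prox1, Flt4 and Lyve1 the difference in means had p = 0.0571 to 0.171 with all 8 libraries and p = 0.0571 to 0.314 without WT inflamed replicate 2 (exact permutation test, two-sided). The smallest p this test can give is 0.0286. Ccl21a, the main chemokine of LN lymphatics, is listed at 0 in all 16 libraries, and Ptprc, which encodes CD45, lay between 0.423 and 0.624 TPM in KO inflamed and between 0.0225 and 1.93 TPM in WT inflamed libraries.

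Stab1 (chr14:31139017-31168651, RefSeq on GRCm38.p6, the assembly of mm10) checked the labels. It held 6.43, 5.85, 8.90 and 8.62 TPM in KO inflamed libraries, against 271, 193, 640 and 374 TPM in WT inflamed libraries. The groups were far apart, with means of 7.45 ± 1.53 TPM in KO inflamed and 369 ± 195 TPM in WT inflamed LECs (SD, n = 4 each; exact permutation test, two-sided, p = 0.0286, and 0.171 adjusted over 6 genes). The log2 fold change was -5.33 ± 0.34 (SE; limma, adjusted p = 0.000261) with all 8 libraries and -5.59 ± 0.26 (adjusted p = 7.55e-06) without WT inflamed replicate 2. All log2 fold changes here are KO minus WT on the log2(TPM + 1) scale, which understates the change of low genes.

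A gene passed where its limma adjusted p, by Benjamini-Hochberg over all genes tested, did not exceed 0.05 and its log2 fold change reached 1 or -1. With all 8 libraries 38 of 12030 genes passed, which is 0.316% of those tested, 23 of them higher (0.191%) and 15 lower (0.125%) in KO inflamed LECs. Without WT inflamed replicate 2 it was 78 of 11954 genes, or 0.653%, with 40 higher (0.335%) and 38 lower (0.318%). Of the 38 genes, 34 also passed without that library. The other 4 were Ctsl, whose log2 fold change became 0.99, and E030030I06Rik, H60b and Unc5a, which fell under the filter on low values. Leaving out any 1 of the other 7 libraries from the full set left 2 to 16 genes higher and 7 to 9 lower. With WT inflamed replicate 2 and 1 further library left out, 15 to 40 genes were higher and 26 to 39 lower. Of the 78 genes, 41 passed in every such fit that tested them. Some of these, among them Fbp1, Ifi202b and AI506816, were tested in only 3 of the 7 fits. They fell under the filter once a library in which they reached 1 TPM was left out, so those fits could not test them. Stab1, Nt5dc2, Abhd1, Raet1d, Raet1e and AI506816, a model without a gene name, passed under all 21 alternative settings fixed for this comparison. In both comparisons the KO and WT libraries of every gene that passed did not overlap, which held for 5.19% of all genes tested with all 8 libraries and for 10.4% without WT inflamed replicate 2.

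**Figure D1:**
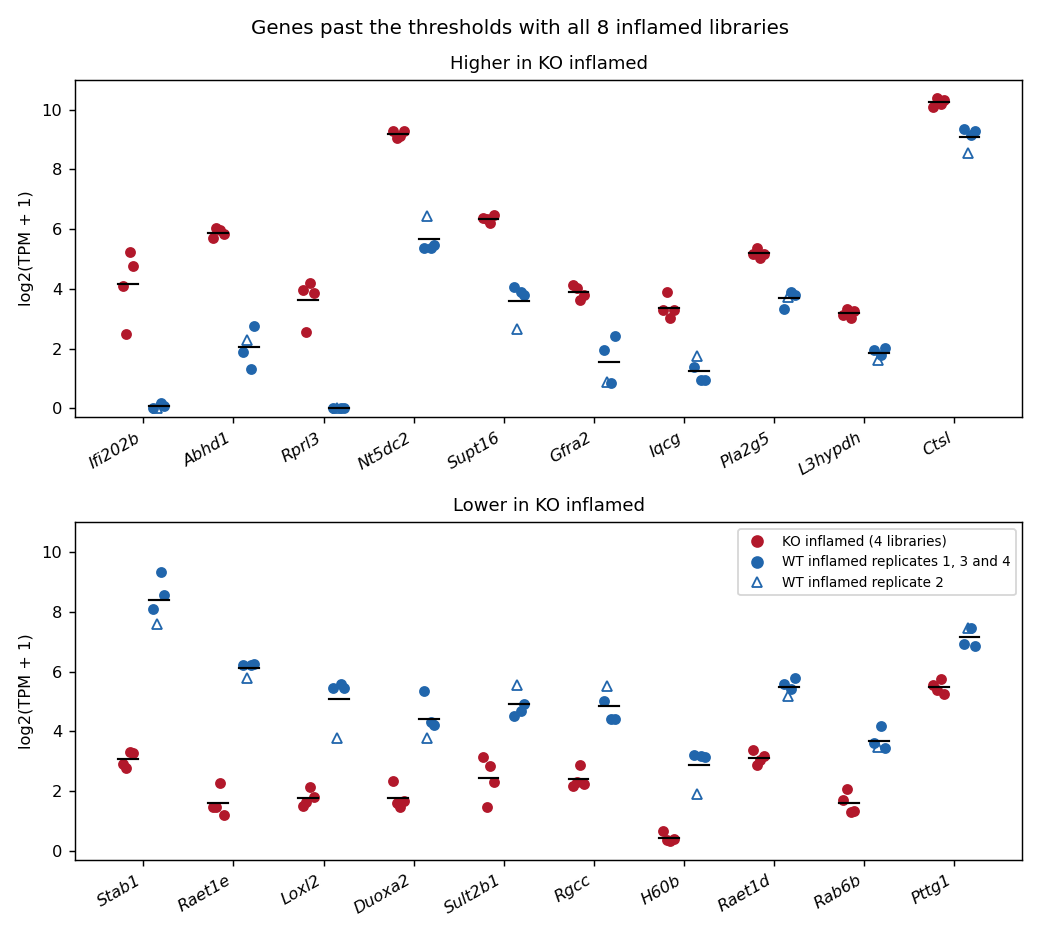
Level of 20 genes past the thresholds in each inflamed library, as log2(TPM + 1), 10 higher (upper panel) and 10 lower (lower panel) in KO inflamed LECs. Each red point is a KO inflamed library, each blue point a WT inflamed library, the open triangle is WT inflamed replicate 2 and each bar is the mean of 4 libraries. Red and blue do not overlap for any of these genes, and Nt5dc2 and Loxl2 show WT inflamed replicate 2 away from the other WT libraries.

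The genes next to Stab1 differed between the genotypes. Nt5dc2 (chr14:31131089-31139124), which encodes a protein with a 5'-nucleotidase domain, held 617, 532, 557 and 616 TPM in KO inflamed libraries, against 40.3, 86.5, 40.2 and 43.4 TPM in WT inflamed libraries. Every KO library lay above every WT library, and the highest WT library was replicate 2. The log2 fold change was 3.52 ± 0.25 (limma, adjusted p = 0.000418), and 3.78 ± 0.08 (adjusted p = 2.05e-08) without WT inflamed replicate 2. The annotations of Nt5dc2 and Stab1 overlap by 108 bases, and the library kit keeps no strand, so reads from that stretch cannot be assigned to either gene. Nisch, which encodes the integrin-binding protein nischarin and lies 2276 bases from Stab1, held 145, 145, 146 and 144 TPM in KO inflamed libraries, against 68.2, 30.7, 77.2 and 67.7 TPM in WT inflamed libraries. It passed only without WT inflamed replicate 2, with a log2 fold change of 1.02 ± 0.07 (adjusted p = 0.000119), against 1.32 ± 0.27 (adjusted p = 0.172) with it, and did so in 5 of the 7 fits with 1 further library left out.

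Chromosome 14 as a whole held a large share of the genes that passed. It held 10 of the 38 genes past the thresholds with all 8 libraries, or 26.3%, and 3.48% of the genes tested. Without WT inflamed replicate 2 it held 24 of 78, or 30.8%, 14 of them higher and 10 lower, and 5.80% of its 414 tested genes passed, against 0.653% of all genes. These 24 genes lay from 27.5 Mb before to 48.1 Mb beyond the middle of Stab1, and 12 of them were more than 20 Mb away. Mustn1 (lower), Gdf10 (higher), Galnt15 (lower) and Lrmda (higher) lay within 10 Mb with Stab1, Nt5dc2 and Nisch. Of these Galnt15 passed in 1, Lrmda in 2, Mustn1 in 3 and Gdf10 in 6 of the 7 fits with 1 further library left out.

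**Figure D2:**
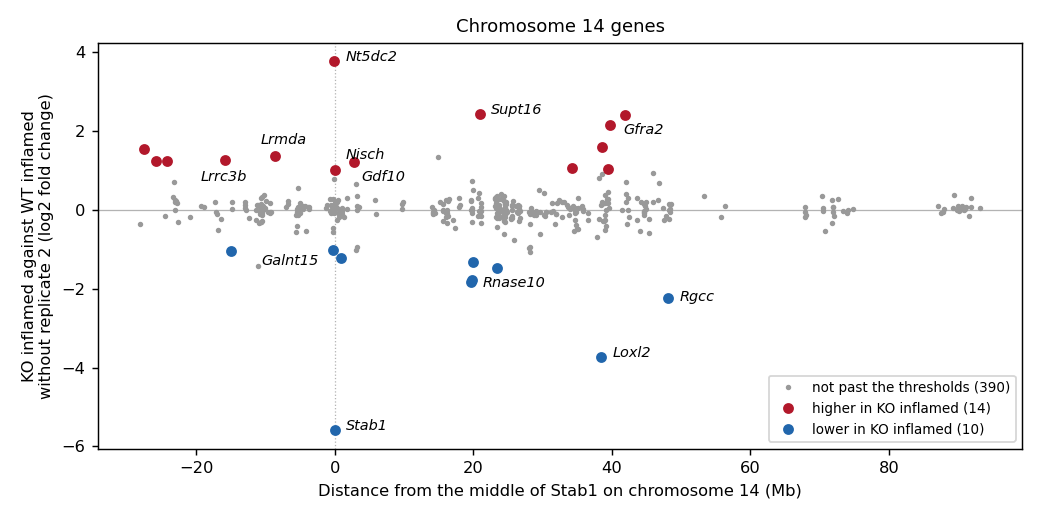
Log2 fold change of KO inflamed against WT inflamed LECs without WT inflamed replicate 2 for the 414 tested genes of chromosome 14, against the distance of each gene from the middle of Stab1 in Mb. Red points are the 14 genes that were higher and blue points the 10 that were lower, grey points are the 390 that did not pass, and the dotted line marks Stab1. The coloured points spread from -27.5 to 48.1 Mb on both sides of Stab1.

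Supt16, which encodes a subunit of the histone chaperone FACT and lies about 21 Mb beyond Stab1, held 81.0, 80.6, 72.3 and 87.1 TPM in KO inflamed libraries, against 15.8, 5.36, 13.7 and 12.9 TPM in WT inflamed libraries. Its log2 fold change was 2.74 ± 0.30 (limma, adjusted p = 0.00562), and 2.43 ± 0.10 (adjusted p = 4.75e-06) without WT inflamed replicate 2, and the groups were far apart. Gfra2, the receptor of the neurotrophic factor neurturin, held 16.5, 15.3, 11.3 and 13 TPM in KO inflamed libraries, against 2.86, 0.862, 0.815 and 4.42 TPM in WT inflamed libraries, with a log2 fold change of 2.36 ± 0.37 (adjusted p = 0.0419), and 2.15 ± 0.32 (adjusted p = 0.0145) without that library. Both genes were higher in each of the 4 KO libraries than in any WT library. Loxl2, a lysyl oxidase that cross-links collagen, lies farther along the same chromosome (chr14:69608692-69695834). It held 1.81, 2.08, 3.44 and 2.53 TPM in KO inflamed libraries, against 42.6, 12.9, 47.0 and 43.3 TPM in WT inflamed libraries. Its log2 fold change was -3.30 ± 0.40 (adjusted p = 0.0117), and -3.73 ± 0.16 (adjusted p = 6.31e-06) without WT inflamed replicate 2, whose value lay closest to the KO libraries. Rgcc, a regulator of the cell cycle that is expressed in endothelium, held 3.52, 3.94, 6.34 and 3.70 TPM in KO inflamed libraries, against 31.7, 44.4, 20.4 and 20.2 TPM in WT inflamed libraries. It fell by a log2 fold change of -2.44 ± 0.30 (adjusted p = 0.0117), and of -2.22 ± 0.22 (adjusted p = 0.00124) without replicate 2. The ribonuclease genes Ang, which encodes angiogenin, and Rnase10 had log2 fold changes of -1.51 (adjusted p = 0.0526) and -1.68 (adjusted p = 0.0681) with all 8 libraries, which did not pass. They passed without replicate 2, with -1.32 (adjusted p = 0.00382) and -1.77 (adjusted p = 0.0175), their libraries did not overlap in either set, and Rnase10 kept its call in 4 of the 7 fits with 1 further library left out.

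Genes for ligands of NKG2D, the activating receptor of natural killer cells and cytotoxic T cells, were lower in KO inflamed LECs. Of the 4 tested members of the list 3 passed as lower with all 8 libraries, against 0.125% of all genes, and 2 of 3 did without WT inflamed replicate 2, against 0.318%. H60b entered the first fit only through the WT libraries and was not tested in the second. Raet1e held 1.80, 1.80, 3.84 and 1.30 TPM in KO inflamed libraries, against 73.0, 54.2, 73.2 and 75.9 TPM in WT inflamed libraries. Raet1d held 9.44, 6.41, 7.19 and 8.14 TPM in KO inflamed libraries, against 46.7, 35.4, 41.5 and 54.8 TPM in WT inflamed libraries. The genotypes were separated for both genes in every library. The log2 fold change was -4.51 ± 0.26 for Raet1e (limma, adjusted p = 0.000132) and -2.37 ± 0.20 for Raet1d (adjusted p = 0.00112), and without WT inflamed replicate 2 it was -4.62 ± 0.22 (adjusted p = 9.32e-06) and -2.47 ± 0.15 (adjusted p = 4.11e-05).

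H60b, another ligand of the receptor, held 0.598, 0.302, 0.253 and 0.318 TPM in KO inflamed libraries, against 8.34, 2.76, 7.99 and 7.83 TPM in WT inflamed libraries. Its log2 fold change was -2.42 ± 0.30 (limma, adjusted p = 0.0117), and without WT inflamed replicate 2 only 3 libraries reached 1 TPM, so it was not tested. Ulbp1, the ligand on another stretch of chromosome 10, held 12.3, 8.81, 7.88 and 10.3 TPM in KO inflamed libraries, against 10.8, 1.74, 6.92 and 9.23 TPM in WT inflamed libraries. The libraries of Ulbp1 overlapped, and its log2 fold change without WT inflamed replicate 2 was 0.12 ± 0.18 (adjusted p = 0.915). Raet1e (chr10:22158542-22189697), H60b (chr10:22273474-22288849) and Raet1d (chr10:22361861-22374143) are neighbours.

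The Raet1 genes are copies of each other, and reads that match both cannot be placed with certainty, so their levels are uncertain as single genes. The 250 bases before the start of Raet1d and before 1 of the starts of Raet1e are shown because they show how close the copies are at these starts (RefSeq, GRCm38.p6, 5′ to 3′ on the plus strand, chr10:22361644-22361893 and chr10:22173247-22173496). Capitals mark the bases that differ in the alignment of the 300-base windows, in which 295 of 298 aligned bases were identical. The other start of Raet1e differed more, with 131 of 277 aligned positions identical to Raet1d (47.3%).
Raet1d: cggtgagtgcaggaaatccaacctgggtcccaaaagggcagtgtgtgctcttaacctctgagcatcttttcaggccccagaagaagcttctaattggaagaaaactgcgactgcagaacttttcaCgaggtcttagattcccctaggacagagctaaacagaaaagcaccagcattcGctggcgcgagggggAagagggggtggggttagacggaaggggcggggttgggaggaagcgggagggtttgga
Raet1e: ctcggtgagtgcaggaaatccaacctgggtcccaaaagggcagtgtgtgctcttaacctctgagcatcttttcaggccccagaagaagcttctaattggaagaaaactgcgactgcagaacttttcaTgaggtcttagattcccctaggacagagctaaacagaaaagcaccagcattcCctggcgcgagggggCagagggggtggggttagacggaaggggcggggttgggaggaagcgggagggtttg

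The p200 family, interferon-inducible proteins of chromosome 1 that bind DNA, held genes that passed in both directions once WT inflamed replicate 2 was left out. Ifi202b was the member that was higher, with 16.1, 4.61, 36.5 and 26.4 TPM in KO inflamed libraries, against 0, 0, 0.144 and 0.0459 TPM in WT inflamed libraries. All WT libraries lay near 0, so that it entered the fits only through KO libraries, and the log2 fold change was 4.08 ± 0.51 (limma, adjusted p = 0.0124), and 4.06 ± 0.54 (adjusted p = 0.00725) without WT inflamed replicate 2. Of the 8 tested members 1 was higher and 0 were lower with all 8 libraries, and 1 was higher and 3 were lower without WT inflamed replicate 2, against 0.335% of all genes higher and 0.318% lower. Mndal held 29.1, 26.0, 37.2 and 33.9 TPM in KO inflamed libraries, against 66.0, 21.6, 62.8 and 74.1 TPM in WT inflamed libraries. Its call rests on leaving out WT inflamed replicate 2, which lay below all KO libraries, and the log2 fold change was then -1.09 ± 0.13 (adjusted p = 0.00377). Ifi211 and Ifi205 were lower in the same fit, with log2 fold changes of -1.06 (adjusted p = 0.0481) and -1.60 (adjusted p = 0.0341), and each passed in 1 of the 7 fits with 1 further library left out. Members of this family are close copies, so their single levels are uncertain.

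Duoxa2 and Sult2b1, known mostly from epithelia, were lower in KO inflamed LECs. Duoxa2, the maturation factor of the hydrogen peroxide producing enzyme DUOX2, held 4.02, 2.07, 1.79 and 2.16 TPM in KO inflamed libraries, against 39.7, 12.8, 19.0 and 17.5 TPM in WT inflamed libraries. The groups did not overlap, and the log2 fold change was -2.64 ± 0.35 (limma, adjusted p = 0.0162), and -2.85 ± 0.30 (adjusted p = 0.00194) without WT inflamed replicate 2. Duox2 itself, which lies 159 bases from Duoxa2, held 1.89, 1.76, 1.81 and 0.954 TPM in KO inflamed libraries, against 7.93, 1.79, 7.2 and 5.82 TPM in WT inflamed libraries. It passed only without WT inflamed replicate 2, which lay among the KO values, with a log2 fold change of -1.63 ± 0.18 (adjusted p = 0.00263). Sult2b1, a sulfotransferase that acts on cholesterol, held 7.76, 1.79, 6.23 and 3.91 TPM in KO inflamed libraries, against 21.9, 45.8, 24.8 and 29.0 TPM in WT inflamed libraries. Its log2 fold change was -2.47 ± 0.38 (adjusted p = 0.0416), and -2.26 ± 0.34 (adjusted p = 0.0145) without replicate 2, where it passed in 5 of the 7 fits with 1 further library left out. Lcn2, the iron-sequestering lipocalin, had a log2 fold change of -1.05 (adjusted p = 0.444) and Ccl20, the chemokine that binds CCR6, one of -0.82 (adjusted p = 0.717), and neither passed.

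Of the 20 tested genes of interleukin-1 and Toll-like receptor signalling Tlr6 passed as higher with all 8 libraries, and Tlr6 as higher and Irak4 as lower without WT inflamed replicate 2, against 0.316% and 0.653% of all genes. Irak4, the kinase that links these receptors and the interleukin-1 receptor to downstream signals, held 9.30, 10.9, 11 and 12.5 TPM in KO inflamed libraries, against 40.5, 13.7, 37.1 and 36.6 TPM in WT inflamed libraries. WT inflamed replicate 2 lay close to the KO libraries. With it the log2 fold change was -1.37 ± 0.33 (limma, adjusted p = 0.318) and without it -1.72 ± 0.11 (adjusted p = 9.26e-05). Tlr6, the partner of TLR2 in the recognition of lipopeptides, held 2.29, 3.28, 1.41 and 2.15 TPM in KO inflamed libraries, against 0.283, 0.0414, 0.351 and 0.369 TPM in WT inflamed libraries. It was higher with all 8 libraries (log2 fold change 1.36 ± 0.20, adjusted p = 0.0292) and without WT inflamed replicate 2 (1.27 ± 0.19, adjusted p = 0.0157). It entered these fits only through KO libraries, and it passed in 1 of the 3 fits with 1 further library left out that tested it. Over these 20 genes the median was 0.27 with all 8 libraries and -0.02 without WT inflamed replicate 2, against 0.20 and 0.02 over all genes.

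Of the other genes that were higher, Abhd1, which encodes a protein of the alpha/beta hydrolase family, held 51.1, 64.4, 61.1 and 55.6 TPM in KO inflamed libraries, against 2.69, 3.87, 1.47 and 5.73 TPM in WT inflamed libraries. The log2 fold change was 3.82 ± 0.30 (limma, adjusted p = 0.000803), and 3.90 ± 0.28 (adjusted p = 0.00017) without WT inflamed replicate 2, and replicate 2 lay within the other WT libraries. Pla2g5, a secreted phospholipase A2, held 35.0, 40.0, 31.9 and 35.2 TPM in KO inflamed libraries, against 9.03, 12.4, 14 and 12.8 TPM in WT inflamed libraries, with a log2 fold change of 1.5 ± 0.19 (adjusted p = 0.0117). Ctsl, which encodes the lysosomal protease cathepsin L, was the most abundant of the 38 genes in KO inflamed LECs, with 1099, 1326, 1166 and 1279 TPM in KO inflamed libraries, against 646, 371, 562 and 627 TPM in WT inflamed libraries. Its groups did not overlap in either set of libraries, with a log2 fold change of 1.17 ± 0.19 (adjusted p = 0.0474) and, without WT inflamed replicate 2, of 0.99 ± 0.08 (adjusted p = 0.000491), just under the fold threshold. It was the only gene past the thresholds among 24 tested genes of lysosomal proteins. Iqcg, a protein of cilia and flagella, L3hypdh, a dehydratase of hydroxyproline, Krt23, a keratin, Slc15a2, a peptide transporter, Cd209f, a C-type lectin, and Prune2 were also higher in both sets of libraries, with log2 fold changes of 1.08 to 2.12 with all 8 libraries. Krt23, Cd209f and Prune2 entered the fits only through KO libraries.

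Fbp1 and Rprl3 were higher in KO inflamed LECs and are listed at 0 in all WT inflamed libraries. Fbp1, the gluconeogenic enzyme fructose-1,6-bisphosphatase, held 5.78, 4.84, 2.63 and 5.84 TPM in KO inflamed libraries and is listed at 0 in all 4 WT inflamed libraries. Rprl3, a copy of the RNA of ribonuclease P, held 14.6, 4.87, 17.4 and 13.5 TPM in KO inflamed libraries and is also listed at 0 in all 4 WT inflamed libraries. Both were past the thresholds in both sets of libraries, and both entered the fits only through KO libraries. Rpph1, the gene of that RNA on chromosome 14, held 3.78, 3.97, 2.36 and 3.55 TPM in KO inflamed libraries, against 17.9, 46.9, 17.4 and 9.85 TPM in WT inflamed libraries, and passed only without WT inflamed replicate 2 (log2 fold change -1.84 ± 0.22, limma, adjusted p = 0.00489). Rprl3 and Rpph1 are copies, and how their reads were divided cannot be told.

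Among the other genes that were lower, Pttg1, which encodes securin, the inhibitor of the protease that separates sister chromatids, held 46.1, 41.0, 53.3 and 36.8 TPM in KO inflamed libraries, against 120, 174, 177 and 115 TPM in WT inflamed libraries. The log2 fold change was -1.69 ± 0.20 (limma, adjusted p = 0.0117), and -1.59 ± 0.17 (adjusted p = 0.00208) without WT inflamed replicate 2, and it was the only gene that passed among 30 tested genes of mitosis. Rab6b, a small GTPase of Golgi traffic, held 2.23, 3.25, 1.47 and 1.51 TPM in KO inflamed libraries, against 11.3, 10.1, 16.9 and 9.96 TPM in WT inflamed libraries, with a log2 fold change of -2.07 ± 0.25 (adjusted p = 0.0117). Unc5a, a netrin receptor, held 0.169, 0.479, 0.310 and 0.265 TPM in KO inflamed libraries, against 2.78, 2.67, 3.18 and 4.12 TPM in WT inflamed libraries. These genes kept the genotypes apart in every library, WT inflamed replicate 2 included. Unc5a entered the fit only through WT libraries and was not tested without WT inflamed replicate 2.

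The genes that passed only without WT inflamed replicate 2 numbered 44. Spib, a transcription factor of B cells and plasmacytoid dendritic cells, held 37.6, 26.4, 35.8 and 33.0 TPM in KO inflamed libraries, against 74.2, 44.7, 79.6 and 93.6 TPM in WT inflamed libraries, with a log2 fold change of -1.29 ± 0.13 (limma, adjusted p = 0.00178). Slc38a4, an amino acid transporter, held 283, 281, 286 and 360 TPM in KO inflamed libraries, against 148, 42.6, 119 and 137 TPM in WT inflamed libraries, with a log2 fold change of 1.16 ± 0.11 (adjusted p = 0.00102). For both genes the KO and WT libraries were apart even with replicate 2, but limma on all 8 gave adjusted p = 0.226 for Spib and adjusted p = 0.265 for Slc38a4. Postn, which encodes the matrix protein periostin, held 923, 785, 465 and 574 TPM in KO inflamed libraries, against 270, 66.8, 309 and 292 TPM in WT inflamed libraries. Its log2 fold change was 1.19 ± 0.20 (adjusted p = 0.027), and it passed in 2 of the 7 fits with 1 further library left out.

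Cdk2, the kinase that drives entry into S phase, held 51.6, 53.7, 42.7 and 56.5 TPM in KO inflamed libraries, against 8.07, 5.14, 8.63 and 28.2 TPM in WT inflamed libraries. WT inflamed replicate 4 lay well above the other WT libraries, and the log2 fold change of 1.92 ± 0.36 (limma, adjusted p = 0.0413) without WT inflamed replicate 2 held in 1 of the 7 fits with 1 further library left out. The calls of Kcnj14 (1.51, a potassium channel), Lrrc3b (1.28), Fut2 (1.62, a fucosyltransferase), Igfbp5 (-1.76, which binds insulin-like growth factors), Plac8 (-1.44), S100a6 (-1.01, a calcium-binding protein) and Zfp395 (1.06) were also lost in several of these fits. Those of Tmem87a (-2.19), Zfp367 (-1.83), Irak4, Spib, Duox2, Ang, Mndal and Slc38a4 held in all 7.

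The listed type I interferon-stimulated antiviral genes and interferon-gamma genes, which do not include the p200 family, had negative median log2 fold changes once WT inflamed replicate 2 was left out, and none of them passed. Of 41 tested type I interferon-stimulated antiviral genes 0 passed, 22 had an unadjusted p under 0.05 (limma), and 1 had a log2 fold change above 0, against 10.9% and 54.7% of all genes. The median was -0.39, against 0.02 over all genes, and it was 0.02 with all 8 libraries, where the median of all genes was 0.20, and -0.23 when these were rescaled by median ratios. Of 22 tested genes of the interferon-gamma response, most of them guanylate-binding proteins and immunity-related GTPases, 0 passed, 12 had an unadjusted p under 0.05 and 0 lay above 0. Their median was -0.40 without WT inflamed replicate 2, 0.18 with it and -0.07 with it after rescaling. With 1 further library left out the medians ranged from -0.46 to -0.22 and from -0.49 to -0.27, and the value nearest 0 was in both cases that without KO inflamed replicate 2. In bulk libraries fewer cells that express a gene and less RNA per cell cannot be told apart.

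Isg15, the ubiquitin-like modifier of the antiviral response, held 777, 422, 906 and 655 TPM in KO inflamed libraries, against 899, 777, 974 and 948 TPM in WT inflamed libraries. Bst2, which encodes tetherin and holds back budding virus, held 1857, 1431, 2191 and 1535 TPM in KO inflamed libraries, against 2092, 2640, 2185 and 2322 TPM in WT inflamed libraries. In both genes KO inflamed replicate 2 was the lowest library and KO inflamed replicate 3 overlapped the WT libraries. Igtp, an immunity-related GTPase that acts on pathogen vacuoles, held 655, 331, 555 and 472 TPM in KO inflamed libraries, against 674, 264, 677 and 674 TPM in WT inflamed libraries. Its KO libraries lay below WT inflamed replicates 1, 3 and 4 and above replicate 2, with a log2 fold change of -0.13 ± 0.34 (limma, adjusted p = 0.854), and of -0.47 ± 0.19 (adjusted p = 0.405) without that library. Ifitm3, which blocks virus entry and was the most abundant of these, had log2 fold changes of -0.35 and -0.16. The summed level of the antiviral genes was 17142 to 25278 TPM in KO inflamed LECs and 24032 to 25839 TPM in WT inflamed LECs, with 31503 TPM in WT inflamed replicate 2, while the mean of log2(TPM + 1) over the same genes was lowest in that library.

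The 250 bases before the start of Bst2 (chr8:71537473-71537722, minus strand) and of Igtp (chr11:58199306-58199555, plus strand) are shown as promoters of the antiviral and the interferon-gamma genes (RefSeq, GRCm38.p6, 5′ to 3′ in the direction of the gene). Of the members considered, they are the most abundant of their lists whose promoter holds GAAA, any 2 bases and GAAA again, letters of the element through which interferons act on their target genes. Members on the chromosome that carries Iigp1, an immunity-related GTPase gene, were left out of this choice. The letters were searched on both strands and are marked in capitals.
Bst2: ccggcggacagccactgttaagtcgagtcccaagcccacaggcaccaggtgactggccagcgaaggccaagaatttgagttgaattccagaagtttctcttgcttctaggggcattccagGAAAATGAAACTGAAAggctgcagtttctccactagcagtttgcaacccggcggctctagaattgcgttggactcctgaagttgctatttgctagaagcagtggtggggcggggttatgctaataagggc
Igtp: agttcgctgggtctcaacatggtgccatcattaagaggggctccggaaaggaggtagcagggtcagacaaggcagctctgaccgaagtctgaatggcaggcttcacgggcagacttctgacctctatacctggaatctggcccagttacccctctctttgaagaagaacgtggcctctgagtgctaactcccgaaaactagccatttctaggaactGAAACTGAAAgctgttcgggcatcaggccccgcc
In Bst2 the capitals join 2 matches that overlap. Within 250 bases before and 50 after the start, these letters were present for 16 of the 31 antiviral genes with a promoter in the RefSeq table (51.6%) and for 10 of 14 interferon-gamma genes (71.4%), against 3.99% of 27025 genes of the table. They were also present for 6 of 35 genes of cytosolic ribosomal proteins (17.1%) and for 0 of the 4 NKG2D ligand genes with a promoter there. A match of letters is a description of the window and does not show binding.

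**Figure D3:**
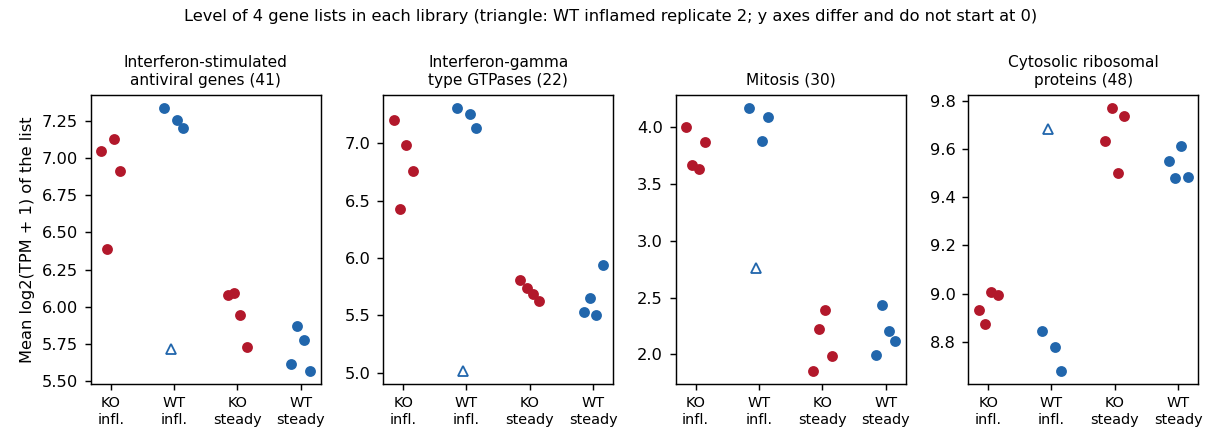
Mean of log2(TPM + 1) over the genes of 4 lists in each of the 16 libraries, with KO (red) left of WT (blue) for inflamed and then for steady state LECs, and WT inflamed replicate 2 as an open triangle. Both interferon lists lie lower in KO inflamed libraries than in WT inflamed replicates 1, 3 and 4 apart from 1 KO library of the interferon-gamma list that exceeds 1 WT library, while WT inflamed replicate 2 lies below all KO inflamed libraries in the first 3 panels and above all of them in the fourth.

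No gene of the antigen presentation lists passed. The share of all genes, 0.316% with all 8 libraries and 0.653% without WT inflamed replicate 2, also gives few or none in such lists. Of 24 tested genes of MHC class I and its peptide loading 0 passed and 1 lay above 0 without WT inflamed replicate 2, against 54.7% of all genes above 0. Their median log2 fold change was -0.19, and -0.05 with all 8 libraries, against 0.02 and 0.20 over all genes. H2-T23, which encodes the non-classical molecule Qa-1, held 1364, 1208, 1477 and 1155 TPM in KO inflamed libraries, against 1558, 1946, 1779 and 1754 TPM in WT inflamed libraries. The groups did not overlap for H2-T23, but its log2 fold change of -0.44 ± 0.13 (limma, adjusted p = 0.596), and of -0.39 ± 0.09 (adjusted p = 0.127) without WT inflamed replicate 2, did not pass. Of 8 tested genes of MHC class II 0 passed, and the median was -0.32 with all 8 libraries and -0.36 without WT inflamed replicate 2, with values of -0.49 to -0.14 when 1 further library was left out, the last without WT inflamed replicate 3.

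Lists of cell growth had medians that moved with WT inflamed replicate 2, though not all in the same direction. With that library the median of the ribosomal protein genes fell, while the median of all genes rose from 0.02 to 0.20. All 48 tested genes of cytosolic ribosomal proteins lay above 0 without that library and 12 did with it, and the median was 0.17 and -0.05 (-0.30 with it after rescaling), with 0 genes past the thresholds. Rps3, a protein of the small subunit, held 1684, 1723, 1735 and 1760 TPM in KO inflamed libraries, against 1381, 1934, 1492 and 1311 TPM in WT inflamed libraries. Of the 30 genes of mitosis 1 lay above 0 without WT inflamed replicate 2 and 23 did with it, with medians of -0.20 and 0.13, against 54.7% and 73.9% of all genes above 0 and medians of 0.02 and 0.20. After rescaling, the median of the mitosis genes with all 8 libraries was -0.08. Birc5, which encodes survivin, had log2 fold changes of -0.40 in both fits and did not pass. Of 16 heat shock genes 0 passed, and 1 lay above 0 without that library and 10 with it. Of 32 genes of DNA replication Cdk2 alone passed, without WT inflamed replicate 2.

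Markers of other cell types that the sort could carry differed in summed level for some types. In 12 tested genes common to leukocytes the median log2 fold change was -0.52 without WT inflamed replicate 2 and -0.24 with it, 1 gene lay above 0 and 0 passed. Their summed level was 808 to 1025 TPM in KO inflamed and 863 to 951 TPM in the other WT inflamed LECs, with 1125 TPM in WT inflamed replicate 2, and Ptprc lay under 2 TPM in all of them. Of 9 tested B cell markers Spib alone passed, and only without WT inflamed replicate 2. Their median was -0.54 without that library and -0.42 with it. Their summed level was 663 to 1001 TPM in KO inflamed and 900 to 1019 TPM in WT inflamed LECs. The summed level of the 23 listed genes of neutrophils and myeloid granules was 450 to 618 TPM in KO inflamed and 648 to 795 TPM in WT inflamed LECs, with 1111 TPM in replicate 2. The median log2 fold change of this list was -0.03 with all 8 libraries and -0.05 without replicate 2, with 6 of 12 and 4 of 10 tested genes above 0 and none that passed. The summed level of T and NK cell markers was 368 to 389 TPM in KO inflamed and 307 to 326 TPM in WT inflamed LECs, with 431 TPM in replicate 2, and 4 of 10 tested genes lay above 0 with that library and 5 of 9 without it. A summed level follows the most abundant genes of its list and need not describe the others, and which genes carried these differences was not tested. The part of such cells in the gene differences was also not tested.

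Lists of LEC identity, receptors, adhesion and inflammation held 0 or 1 gene past the thresholds, where the share of all genes, 0.316% and 0.653%, also gives few or none in lists of this size. The same holds for the lists above in which no gene passed. A p that misses the threshold does not show that levels were the same. Of 21 tested genes of LEC identity 0 passed, and the median log2 fold change was 0.35 with all 8 libraries and 0.10 without WT inflamed replicate 2. Of 20 scavenger and endocytic receptors Stab1 alone passed. Marco, a scavenger receptor of medullary sinus LECs, held 1804, 1828, 1900 and 1927 TPM in KO inflamed libraries, against 863, 1061, 1526 and 1784 TPM in WT inflamed libraries, and did not pass (log2 fold change 0.57 ± 0.22, limma, adjusted p = 0.717). No gene passed among 31 genes of leukocyte adhesion and transmigration, 14 inflammatory CC chemokines, 8 inflammatory CXC chemokines and 23 genes of the NF-kB pathway. Among the adhesion genes F11r, which encodes the junctional protein JAM-A, came nearest without WT inflamed replicate 2, with a log2 fold change of -0.58 ± 0.08 (adjusted p = 0.00733) that stayed under the fold threshold. Cxcl10, the interferon-induced chemokine of CXCR3, held 2138, 1055, 1940 and 1513 TPM in KO inflamed libraries, against 2129, 1281, 1597 and 1537 TPM in WT inflamed libraries, and the groups overlapped fully.

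**Figure D4:**
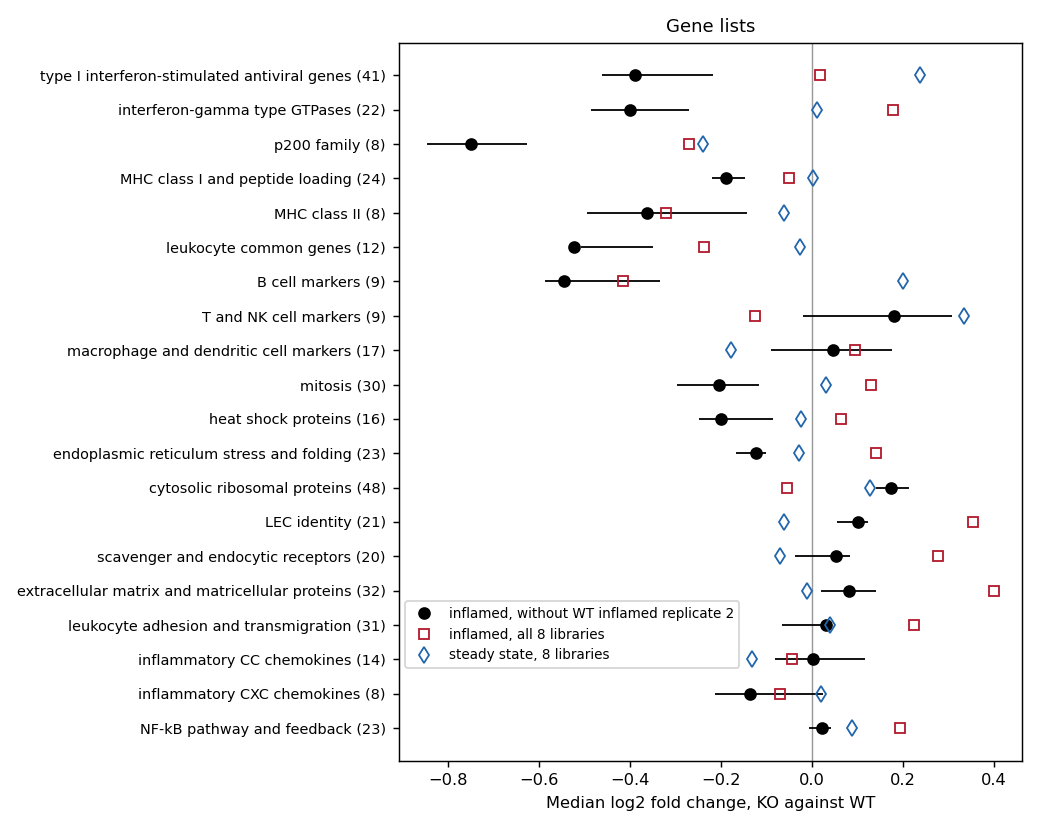
Median log2 fold change of KO against WT LECs over the tested genes of 20 gene lists, with the number tested in parentheses. Black points are inflamed LECs without WT inflamed replicate 2, with lines for the range of medians when 1 further library was left out, red squares are all 8 inflamed libraries and blue diamonds are steady state LECs. The interferon lists lie at -0.39 and -0.40 as black points and at 0.02 and 0.18 as red squares, for which the median of all genes was 0.20. Rescaling all 8 libraries by median ratios, which is not drawn, gave -0.23 and -0.07.

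The steady state libraries show the same genotype difference in other mice, and 99 of their 12058 tested genes passed, which is 0.821%, 52 of them higher (0.431%) and 47 lower (0.39%). Over all genes 39.4% lay above 0 and 11.7% had an unadjusted p under 0.05. Of the 38 genes past the thresholds with all 8 inflamed libraries, 33 were tested at steady state, all 33 had the same direction and 27 passed there. Of the 78 genes without WT inflamed replicate 2, 71 were tested at steady state, 69 had the same direction, 40 passed and 61 had an unadjusted p under 0.05 in the same direction. Those 40 genes were 51.3% of the genes that passed in inflamed and 40.4% of those that passed in steady state LECs. The median size of the log2 fold change over the 71 genes was 1.51 in inflamed and 1.23 in steady state LECs. These genes were chosen by their fold change in inflamed LECs, which by itself favours the larger value there. The medians therefore do not show that the genotype difference was larger after the injection. Raet1e, Loxl2, Abhd1 and Stab1 passed in both, with log2 fold changes at steady state of -5.18, -3.47, 3.70 and -5.14.

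**Figure D5:**
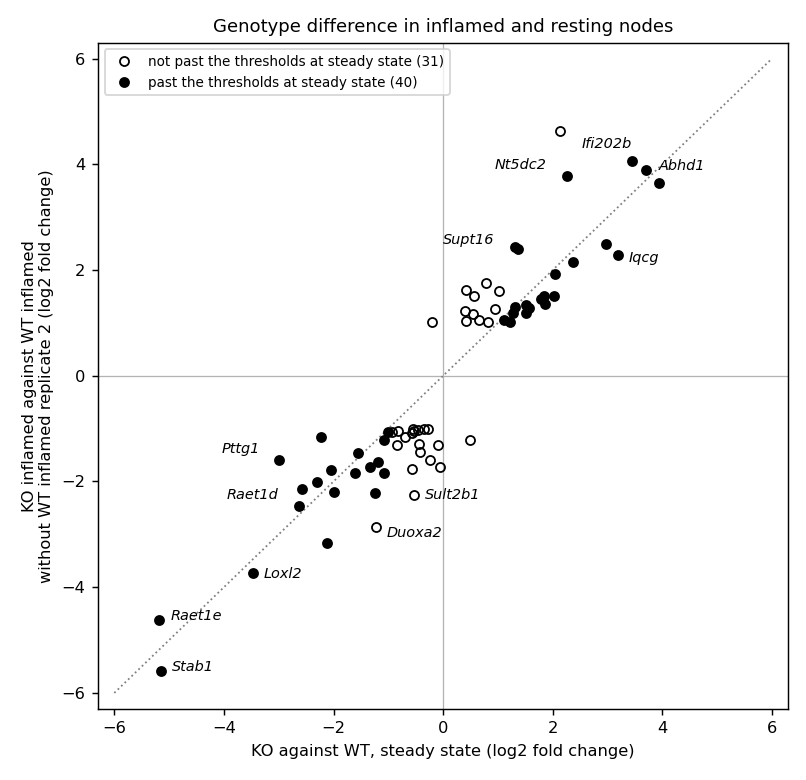
Log2 fold change of KO inflamed against WT inflamed LECs without WT inflamed replicate 2 (vertical) against that of KO against WT LECs at steady state (horizontal) for the 71 genes past the thresholds in inflamed LECs and tested in both. Filled points are the 40 genes that also passed at steady state, open points the 31 that did not, and the dotted line marks equal values. All but 2 points lie in the lower left or upper right part of the plot, where both fold changes have the same sign.

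Duoxa2, Sult2b1 and Cd209f passed in inflamed but not in steady state LECs. Duoxa2 held 4.40, 4.86, 2.87 and 3.80 TPM in KO steady state libraries, against 8.69, 13.2, 18.0 and 5.64 TPM in WT steady state libraries, with a log2 fold change of -1.22 (limma, adjusted p = 0.061), and Sult2b1 had one of -0.54 (adjusted p = 0.246). Whether the genotype difference itself changed with the injection was tested over all 16 libraries as the inflamed minus the steady state difference. With all libraries 0 of 12684 genes passed, while 542, or 4.27%, had an unadjusted p under 0.05. Without WT inflamed replicate 2 it was 6 of 12666 genes, or 0.0474%, and Duoxa2 (-1.63, adjusted p = 0.403), Sult2b1 (-1.73, adjusted p = 0.264) and Cd209f (0.97, adjusted p = 0.645) were not among them.

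Nt5dc2 differed more between the genotypes in inflamed than in steady state LECs, where KO libraries held 247 to 297 TPM and WT libraries 52.5 to 59.4 TPM. Its difference of the differences was 1.52 ± 0.11 (limma, adjusted p = 4.29e-06) without WT inflamed replicate 2, and 1.26 (adjusted p = 0.476) with it. Supt16 likewise had a larger difference in inflamed LECs, with 1.11 ± 0.16 (adjusted p = 0.0257) without that library and 1.42 (adjusted p = 0.485) with it. For Pttg1 the genotype difference was smaller in inflamed LECs, since KO steady state libraries held 17.1 to 28.2 TPM, against 174 to 214 TPM in WT steady state libraries, and the difference of the differences was 1.40 ± 0.24 (adjusted p = 0.0465) without and 1.31 (adjusted p = 0.347) with WT inflamed replicate 2. Tmem218, a transmembrane protein of the primary cilium, passed as lower in KO LECs at steady state and not after the injection. It held 71.7, 79.2, 92.1 and 66.6 TPM in KO steady state libraries, against 314, 269, 230 and 301 TPM in WT steady state libraries, and 52.3, 56.1, 54.6 and 66.1 TPM in KO inflamed libraries, against 39.2, 65.4, 56.1 and 97.1 TPM in WT inflamed libraries. Its difference of the differences was 1.77 ± 0.29 (adjusted p = 0.0465) without and 1.74 (adjusted p = 0.169) with WT inflamed replicate 2. The interferon lists had medians of 0.24 and 0.01 at steady state. Without WT inflamed replicate 2 the median of their difference of the differences was -0.58 for the antiviral genes, with 0 of 41 above 0. It was -0.48 for the interferon-gamma genes, with 1 of 22 above 0. No gene of either list passed, and over all genes 62.2% lay above 0 with a median of 0.06. These list values were taken only without that library. With it the inflamed medians were 0.02 and 0.18, against 0.20 over all genes, so whether the negative values hold with it was not tested.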

How the data were processed

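RNA of sorted LECs was amplified with SMART-Seq v4, made into Nextera XT libraries and sequenced as single reads on an Illumina HiSeq. The authors deposited tables of TPM per gene, with 24972 lines each, for pairs of groups. The submitters' processing notes name STAR 2.5.2b, Subread, limma and the build mm10, while the methods name salmon, so how reads were divided between copies of a gene is not certain. The kit keeps no strand. Each library was taken once from the tables (8 library columns were repeated and 0 values differed), 26 names that a spreadsheet had turned into dates were left out, and 7 deposited tables were not used, among them those with the authors' own fold changes and p-values. Samples were grouped by their labels. A gene entered a fit if 4 or more of its libraries held 1 TPM or more. Values of log2(TPM + 1) were fitted by limma 3.58.1 (R 4.3.3), its eBayes step using the trend option and two-sided tests, with Benjamini-Hochberg adjustment over all genes tested. The limma fits were checked on simulated data with known changes. The simulated noise was independent for each gene and library, so the check does not cover the shift of WT inflamed replicate 2 across many genes. A limit on false calls applied to every simulated fit, and a required share of recovered changes to all but that of all 8 inflamed libraries. Means of marker genes were compared by exact permutation of the library labels. TPM gives no depth, so no counting interval can be given, and because the labels do not say which libraries share a day or litter, p-values measure the spread between these libraries.

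Genes were named by rule: Stab1 and the LEC markers, the 12 highest and 12 lowest log2 fold changes past the thresholds with no overlap and a mean of at least 5 TPM in 1 group, the first 6 in each direction without WT inflamed replicate 2, the first 5 in each direction of the difference of differences, up to 4 members of each list described, and genes the study names. Unnamed gene models did not enter the ranks. Other genes, among them Duox2, Rpph1, Tmem87a, Zfp367, Slc38a4, the genes of chromosome 14 that passed only without WT inflamed replicate 2, F11r and those whose calls were lost in several fits, were picked once their values were known. The gene lists and the choice to leave out WT inflamed replicate 2 were made with earlier results of these data known. Alternatives were other pseudocounts, filters, scalings, array weights, fits over all 16 libraries, a replicate block and leaving out libraries. Leaving out WT inflamed replicate 2 with 1 further library, and rescaled marker levels, were added after seeing the data. Promoter sequences and positions came from RefSeq on GRCm38.p6.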

Additional observations from a re-analysis of the deposited data

Results flagged for a closer look

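In each group of 4 libraries the highest and lowest values of the 90 genes named or described were set against the other 3. Of the 180 groups, those in which no library reached 1 TPM were left out, and chance marks about 0.05 of the groups examined. In WT inflamed replicate 2, 10 genes lay far below the other WT inflamed libraries: Prox1 at 16.8 TPM, Raet1e at 54.2 TPM, Loxl2 at 12.9 TPM, H60b at 2.76 TPM, Irak4 at 13.7 TPM, Ifi204 at 25.1 TPM, Postn at 66.8 TPM, Igtp at 264 TPM, F11r at 554 TPM and Hspa8 at 2497 TPM. In the same library Nt5dc2 at 86.5 TPM and Ifitm3 at 21932 TPM lay far above the others. WT inflamed replicate 4 was far above the other WT inflamed libraries for Cdk2 (28.2 TPM) and Cd247 (67.7 TPM) and far below them for Lcn2 (256 TPM). Among KO inflamed libraries, replicate 1 was far above the others for Duoxa2 (4.02 TPM) and replicate 2 for Gdf10 (179 TPM), while replicate 2 was far below them for Iigp1 (408 TPM). KO inflamed replicate 3 was far above the others for Rgcc (6.34 TPM) and Hspa1b (865 TPM) and far below them for Prox1 (82.5 TPM). KO inflamed replicate 4 was far above the others for Cd209f (4.68 TPM) and Slc38a4 (360 TPM) and far below them for Duox2 (0.954 TPM).

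The genotype difference itself differed between inflamed and steady state LECs, tested by limma without WT inflamed replicate 2, for Nt5dc2 (1.52 log2 units), Tmem218 (1.77), Pttg1 (1.40), the small nucleolar RNA Snord118 (1.22), Supt16 (1.11) and Rnase1 (-1.51). With all 16 libraries none of these passed. Rnase1, a secreted ribonuclease, held 0.133, 0, 0.572 and 0.172 TPM in KO inflamed libraries and 1.76 to 3.20 TPM in KO steady state libraries, and it is listed at 0 in every WT library. Rnase1 therefore entered the fit only through the KO steady state libraries, where it was highest.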

How the results depend on the processing

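No named gene that passed changed direction under an alternative, and direction was compared for the named genes only. The counts depended on the processing. With all 8 libraries 23 genes were higher and 15 lower. The count of higher genes was 13 with a pseudocount of 0.1 TPM, 12 with a pseudocount of 5 TPM and 9 with a minimum of 5 TPM. It was 45 with array weights (44 lower), 46 when all 16 libraries shared the spread (32 lower), and 37 with median ratio scaling without WT inflamed replicate 2 (39 lower). Leaving out 1 or 2 libraries gave 2 to 40 higher and 7 to 39 lower. The higher count was 2 or 3 without any 1 KO library, 10 without WT inflamed replicate 1 or 3, 16 without replicate 4 and 40 without replicate 2, and the lower count was 7 to 9 without any 1 library other than WT inflamed replicate 2 and 38 without that one. At steady state, with 52 higher and 47 lower, a pseudocount of 5 TPM gave 24 and 21, no fold threshold 121 and 97, and leaving out 1 library 30 to 50 and 35 to 46. For the difference of differences, with 0 in each direction and 542 genes at an unadjusted p under 0.05, array weights gave 8 higher and 3 lower, median ratio scaling 1 and 1, and, without WT inflamed replicate 2, 2 and 1. A pseudocount of 5 TPM and quantile scaling each gave 1 higher, no filter 2 lower and no trend 1 lower, and leaving out 1 library gave 0 to 5 higher and 0 to 1 lower. The cause of these shifts was not tested. Libraries with the same replicate number did not deviate together (correlations of -0.116 to 0.0314 in inflamed and -0.0386 to -0.00173 in steady state LECs). A replicate block gave 10 higher and 10 lower with all 8 libraries and, without WT inflamed replicate 2, 33 higher and 45 lower, and for the difference of differences 2 higher.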

Other observations

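Several further gene lists held few or no genes past the thresholds. Of 32 tested genes of the extracellular matrix Loxl2 was lower in both sets of libraries and Postn was higher without WT inflamed replicate 2, and the median log2 fold change was 0.40 with all 8 libraries and 0.08 without that library. Of 20 tested genes of blood endothelium and high endothelial venules Rgcc alone passed, and the median was 0.19 and 0.04. Madcam1, the addressin that binds the integrin of gut-homing lymphocytes, held 469, 470, 382 and 364 TPM in KO inflamed libraries, against 310, 395, 227 and 301 TPM in WT inflamed libraries, and its log2 fold change of 0.59 (limma, adjusted p = 0.0938) without WT inflamed replicate 2 did not pass. Of 40 genes of oxidative phosphorylation 36 lay above 0 without WT inflamed replicate 2 and 7 with it, and of 23 genes of endoplasmic reticulum stress and folding 5 did without it and 13 with it, against 54.7% and 73.9% of all genes, with no gene past the thresholds in either list. Cd247, which encodes the zeta chain of the T cell receptor complex, held 106, 121, 89.9 and 93.8 TPM in KO inflamed libraries, against 61.3, 61.8, 60.8 and 67.7 TPM in WT inflamed libraries. Its libraries did not overlap and its log2 fold change of 0.68 (adjusted p = 0.0188) without WT inflamed replicate 2 stayed under the fold threshold.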
